A study of Paeonia lactiflora with 8 samples.

Results

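The miR390 family of the herbaceous peony Paeonia lactiflora was represented by 5 of the 270 different mature sequences in the deposited small RNA table. A sequence was taken as a member when the family number in its name was 390, and each sequence was counted once. The libraries came from root, leaf and flower at blossom and from fruit at the young fruit stage, with 2 libraries per tissue (n = 2) that the labels describe as biological replicates. For fruit, tissue and stage cannot be told apart. The labels give no cultivar, plant age, treatment or batch, and the protocols name more libraries than the 8 used here. The wider study looked for regulators that vary between organs with unequal amounts of paeoniflorin, a monoterpene glucoside of peony root.

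miR390 is one of the oldest miRNAs of land plants. In Arabidopsis it is loaded almost exclusively into the Argonaute protein AGO7, which favours its 5' adenine. It then binds the non-coding TAS3 transcripts, which are cut and copied into phased secondary small RNAs. Some of these trans-acting small interfering RNAs silence auxin response factor genes that act in leaf polarity, phase change and lateral root growth. The guide strand comes from the 5p arm of the hairpin, and the 3p arm gives the passenger strand, which is usually discarded. TAS3, its small RNAs and their targets were not analysed here.

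The sequences are shown because the forms differ by single bases that change how the arms face each other. They are written 5' to 3' with T for U, and capitals mark bases 2 to 8. In the last line only, capitals mark the run that the sequence shares with the 5p forms.
ath-miR390a-5p_1ss19GA: aAGCTCAGgagggatagcacc
ptc-miR390a_R+1: aAGCTCAGgagggatagcgccc
ath-miR390a-3p_1ss18TC: cGCTATCCatcctgagtctca
ath-miR390a-3p_1ss8CT: cGCTATCTatcctgagtttca
hex-MIR390a-p3_2ss1TA21GT: aaagaagaatAAGCTCAGGAt

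The names are as deposited. The prefix is the species of the matching miRBase entry, R+1 marks 1 base added at the right end, and ss marks substitutions counted from 1 at the 5' end. The most abundant form, ath-miR390a-5p_1ss19GA, thus differs from the Arabidopsis guide by G19A. The poplar-named ptc-miR390a_R+1 is 22 nt long, and over the first 21 bases it differs from the main form at 1 position, A19G. Both share bases 2 to 8, and 0 of the 265 sequences of other families had the same bases there. Both begin with A, as do 19.6% of the 270 sequences, while 53.3% begin with T.

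The 3p forms were each 21 nt long and identical at 19 of 21 bases, and from the first to the second they differ by C8T and C18T. Because bases 2 to 8 include position 8, the forms fall into separate seed groups. ath-miR390a-3p_1ss18TC shares its bases 2 to 8 with 1 sequence of another family, gma-MIR393a-p3, and ath-miR390a-3p_1ss8CT with 0.

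Set opposite each other with overhangs of 2 bases at the 3' ends, the arms face at 19 positions. The main 5p form and ath-miR390a-3p_1ss18TC had 15 Watson-Crick pairs, 1 wobble pair and 3 mismatches, at 5p positions 2, 11 and 19. With ath-miR390a-3p_1ss8CT the main form had 15 Watson-Crick pairs, 2 wobble pairs and 2 mismatches, at positions 11 and 19. The substitutions between the 3p forms thus lie opposite 5p positions 12, which became a wobble, and 2, which became a pair. ptc-miR390a_R+1 kept a pair at position 19 with either 3p form. Position 11, in the middle of the duplex, was mismatched in all 4 combinations. The energies computed for the 4 combinations lay between -28.2 and -25.9 kcal/mol. Which 5p and 3p forms share a hairpin was not tested.

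The fifth form, hex-MIR390a-p3_2ss1TA21GT, goes against its name. The suffix p3 places it on the 3p arm of a sunflower (Helianthus) hairpin, but its bases 11 to 20 are identical to bases 1 to 10 of both 5p forms. Its longest run in common with a 3p form was 4 bases. The shared run of 10 bases occurred in 0 of the 265 sequences of other families. By its letters it overlaps the start of the guide, and it is called the overlapping form below and kept out of the sums for either arm.

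The summed listed values per library ran from 179334 in fruit 1 to 536567 in flower 2, and implied depth from 73898 reads in root 2 to 724509 in flower 2. In flower 2, ath-miR159a alone held 57.7% of the total, against 20.3% to 40% for that miRNA or bdi-miR166a-3p, whichever was the most abundant, in the other libraries. Pearson's r between replicates across 216 sequences, which are not independent, was 0.692 in root and 0.861 to 0.915 in the other tissues. The floor of 3 reads was worth 7.62 in root 2 and between 1.3 and 4.27 elsewhere, and smaller values may go unseen. In these bulk samples, fewer cells of a type and less RNA per cell cannot be told apart.

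The family made up between 0.0731% of the listed total, in root 2, and 0.986%, in flower 1. The main 5p form held 82.3% of the family's summed value over all libraries. ath-miR390a-3p_1ss18TC held 10.9%, ath-miR390a-3p_1ss8CT 5.9%, the overlapping form 0.709% and ptc-miR390a_R+1 0.154%. By mean value the main form ranked 39 among the 270 sequences and the 3p forms 77 and 85, so the family's value rested mainly on 1 sequence.

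The guide strand was present in every library and lowest, on average, in leaf. ath-miR390a-5p_1ss19GA had a normalized read count of 923 and 137.2 in the root libraries, 118.5 and 139.5 in the leaf libraries, 1904 and 361 in the flower libraries and 914 and 407 in the fruit libraries. In the same order these values stand for 649 and 54, 113 and 188, 4405 and 487, and 655 and 441 reads. Both leaf libraries lay below both flower and both fruit libraries, while root 2 lay between the leaf libraries and root 1 above them. The mean was 1132 ± 1091 in flower, 660.5 ± 359 in fruit, 530.2 ± 556 in root and 129 ± 14.9 in leaf (SD, n = 2).

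No neighbours in that order were separated beyond their spread, because flower overlapped fruit, fruit overlapped root and root overlapped leaf. The largest difference was between leaf and flower, where flower was 8.78-fold higher by the means. Its log2 difference, leaf minus flower on the log2(value + 1) scale, was -2.68 ± 1.23 (SE), with a 95% interval from -5.64 to 0.28 (adjusted p = 0.273, limma). Fruit was 5.12-fold higher than leaf. The log2 difference, leaf minus fruit, was -2.24 ± 1.23 (SE), with an interval from -5.2 to 0.73 (adjusted p = 0.373, limma). Neither was called. Both flower libraries above both leaf libraries was also seen for 27.8% of all sequences tested, and both fruit libraries above both leaf libraries for 20.4%. For the other 4 pairs the libraries overlapped, with adjusted p from 0.551 to 0.92 (limma).

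The replicates of the guide strand spread widely outside leaf. The fold between replicates was 6.73 in root, 5.28 in flower, 2.25 in fruit and 1.18 in leaf. As a share of the listed total, the form made up 0.364% and 0.0731% of the root libraries, 0.0443% and 0.0567% of the leaf libraries, 0.849% and 0.0672% of the flower libraries and 0.51% and 0.219% of the fruit libraries. On that scale the leaf libraries were the lowest of the 8, but flower 2 and root 2 came close to them. With equal listed totals the log2 difference, flower minus fruit, turned from 0.44 to -0.48, so no order of flower and fruit can be given.

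The 22-nt guide with the other base at position 19 was seen at a trace level in flower only. ptc-miR390a_R+1 was 4.75 and 4.44 in flower, or 11 and 6 reads, and was listed at 0 in the other 6 libraries. Limma called it higher in flower than in root (adjusted p = 0.0385), leaf (adjusted p = 0.0462) and fruit (adjusted p = 0.0462), with a log2 difference of 2.48 ± 0.44 (SE) from each. Of all sequences tested, 1.85% were called higher in flower against root, 1.39% against leaf and 2.31% against fruit. It passed the filter on low values through flower alone, so it had to differ there, and 2.78% of the sequences tested were likewise above 0 in both flower libraries and nowhere else.

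The depth behind this form was small. Flower had the 2 deepest libraries, and the mean flower value of 4.6 would be worth between 1.81 reads in root 2 and 6.2 reads in leaf 2 in the libraries where the form was at 0. It lies below the 3-read floor of root 2, so its absence there was not detectable at this depth. It lies above the floors of the other 5 libraries, but only just in root 1 and fruit 1, at 3.23 and 3.29 reads. The form was 0.215% of the family's value in flower 1 and 0.553% in flower 2, and whether such shares would be seen elsewhere was not tested. The zeros of both libraries of a tissue also leave no visible spread. By the F test over the 4 tissues it was the 1 form called (adjusted p = 0.0499, limma), where 4.63% of all sequences were called.

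**Figure D1:**
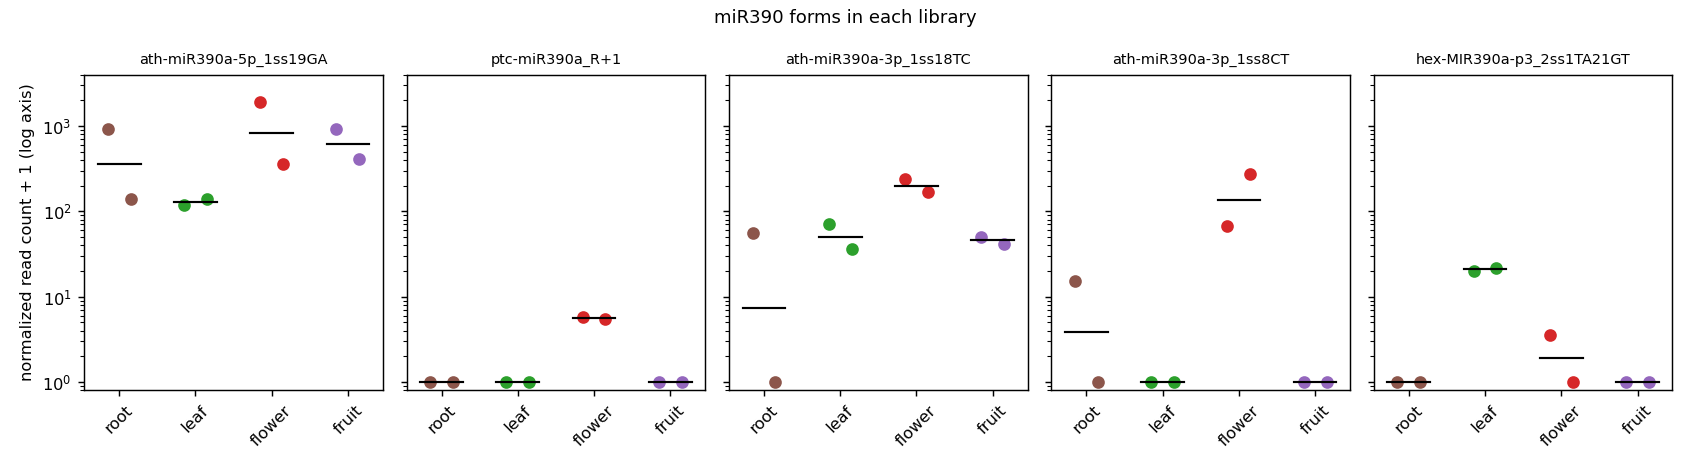
Normalized read count plus 1, on a log axis, of each miR390 form in each library; points are libraries, with replicate 1 left of replicate 2, and bars the mean on the log scale (n = 2). The guide form is present in all 8 libraries, ptc-miR390a_R+1 and ath-miR390a-3p_1ss8CT are highest in flower, and the overlapping hex form is highest in leaf, at 18.9 and 20.8.

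Among the passenger strands, ath-miR390a-3p_1ss18TC was found in 7 of the 8 libraries and was highest in flower. Its normalized read count was 236 and 166.6 in the flower libraries, 69.2 and 34.9 in the leaf libraries, 54.1 and 0 in the root libraries and 48.9 and 40.6 in the fruit libraries. Both flower libraries lay above all the others, and leaf, fruit and root 1 lay close together. As a share of the listed total, flower 1 held 0.105%, but flower 2, at 0.0311%, came close to fruit 1 at 0.0272% and leaf 1 at 0.0259%. With equal listed totals the log2 difference, flower minus fruit, fell from 2.13 to 1.22. The flower mean of 201 ± 48.7 was 7.44-fold that of root, 3.86-fold that of leaf and 4.5-fold that of fruit (SD, n = 2). None of these was called. The log2 difference, root minus flower, was -4.75 ± 1.82 (SE), with a 95% interval from -9.12 to -0.37 (adjusted p = 0.245, limma). Both flower libraries above both of the other tissue was seen for 22.2% of all sequences against root, 27.8% against leaf and 29.2% against fruit.

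The 0 in root 2 decided the root values of this form. At the share of the guide form seen in root 1, 5.86%, root 2 would have a value of 8.03, against a 3-read floor of 7.62. At the lowest and highest shares among the other libraries, the value would be 7.33 and 80.1. Without root 1, root rests on the 0 of root 2 alone. The log2 difference was then -5.65, root minus leaf, -7.64, root minus flower, and -5.51, root minus fruit. Without root 2, it was 0.13, root minus leaf, -1.85, root minus flower, and 0.27, root minus fruit.

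The second passenger form was found mostly in flower. ath-miR390a-3p_1ss8CT was 65.7 and 272 in flower, or 152 and 367 reads, 14.2 and 0 in root, and listed at 0 in all 4 leaf and fruit libraries. Both flower values lay above every other value, and both flower libraries above both of the other tissue is seen for the shares of all sequences given above. Its log2 difference was -7.08 ± 1.5 (SE), leaf minus flower (adjusted p = 0.0787, limma), 7.08 ± 1.5 (SE), flower minus fruit (adjusted p = 0.0748, limma), and -5.11 ± 1.5 (SE), root minus flower (adjusted p = 0.153, limma). None was called, and the nearest of the 95% intervals ended at -1.5 for root minus flower. The form passed the filter on low values only through flower, since outside flower 1 library, root 1, reached a value of 1, so it had to differ there. The flower replicates differed 4.14-fold.

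The mean flower value of 168.7, from replicates of 65.7 and 272, would be worth between 66.4 reads in root 2 and 227 reads in leaf 2 in the 5 libraries where the form was listed at 0. Whether it was called moved both ways with the libraries used. Without root 1 it was called against leaf, fruit and root (adjusted p = 0.018, 0.0198 and 0.0242, limma), and without root 2 against leaf and fruit (adjusted p = 0.0193 and 0.0221, limma), while calls over all sequences and pairs rose from 48 to 166 and 111. Leaving out any other library gave an adjusted p between 0.108 and 0.466 against leaf and between 0.155 and 0.39 against fruit (limma). Library weights called it against leaf (adjusted p = 0.0301, limma) and fruit (adjusted p = 0.0277, limma) and the fit of leaf and flower alone against leaf (adjusted p = 0.0405, limma). Calls over all sequences and pairs were 66 with library weights and 66 with each pair fitted alone, against 48 in the main fit. As the form passed the filter only through flower, its calls are a description.

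The passenger forms also stood in different proportion to each other in the flower replicates. ath-miR390a-3p_1ss8CT made up 21.8% of the 697 passenger reads in flower 1, with a 95% interval from 18.8% to 25.1%, and 62% of the 592 in flower 2, with an interval from 57.9% to 65.9%. In root 1 it was 10 of 48 reads, or 20.8%. In leaf and fruit it was 0 of 35 to 66 reads per library, which by the floor of 3 reads allows a share of up to 4.55% in leaf 1, 6.38% in leaf 2, 8.57% in fruit 1 and 6.82% in fruit 2. The exact intervals end at 5.44%, 7.55%, 10% and 8.04% in the same order.

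The balance of the arms differed between libraries. The 3p forms held 36.9% of the 179 reads of both arms in leaf 1 and 20% of 235 in leaf 2. They held 5.07% of 690 reads in fruit 1, 9.07% of 485 in fruit 2 and 6.89% of 697 in root 1. In root 2 it was 0 of 54 reads, which allows a share of up to 5.56% by the floor of 3 reads, or 6.6% by the exact interval. Both leaf libraries thus had a higher passenger share than both root and both fruit libraries. In flower 1 the 3p forms held 13.6% of 5113 reads and in flower 2 they held 54.6% of 1085, the 1 library where passenger reads outnumbered guide reads. That holds for the sum of the 3p forms only. In flower 2 ath-miR390a-3p_1ss18TC had 225 reads and ath-miR390a-3p_1ss8CT 367, each below the 487 of the main 5p form. The 95% intervals ran from 15.1% to 25.7% in leaf 2, the lower leaf library, and from 6.67% to 12% in fruit 2, the higher of root and fruit.

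By the means, leaf and fruit were near each other for the passenger and further apart for the guide, but neither difference was called. The guide's log2 difference, leaf minus fruit, was -2.24, with a 95% interval from -5.2 to 0.73 (adjusted p = 0.373, limma). The leaf mean of ath-miR390a-3p_1ss18TC was 1.16-fold that of fruit, with a log2 difference, leaf minus fruit, of 0.14 and an interval from -4.23 to 4.51 (adjusted p = 1, limma), while the guide was 5.12-fold lower in leaf by the means. In flower the arms moved apart between replicates, with 5p sums of 1908 and 365 and 3p sums of 301 and 438. The share is a ratio of members and was given no test between tissues.

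**Figure D2:**
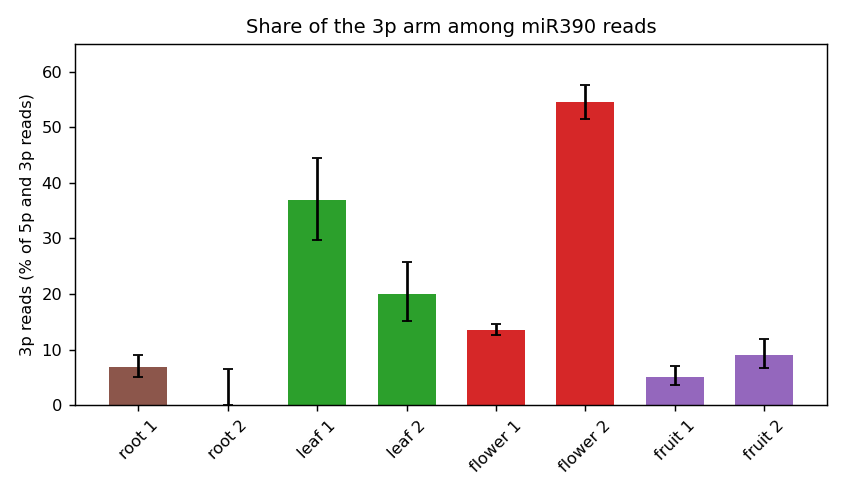
Reads of both 3p forms as a percent of the reads of the 3p and 5p forms in each library; bars are libraries and error bars exact 95% binomial intervals, which cover counting error only. The leaf libraries, at 36.9% and 20%, lie above the root and fruit libraries, and the flower libraries are far apart, at 13.6% and 54.6%.

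The overlapping form was highest in leaf. hex-MIR390a-p3_2ss1TA21GT was 18.9 and 20.8 in leaf, or 18 and 28 reads, 2.59 and 0 in flower, where the first value is 6 reads, and listed at 0 in both root and both fruit libraries. The leaf values lay above all others and within 1.1-fold of each other. Limma called it higher in leaf than in root (adjusted p = 0.0346) and fruit (adjusted p = 0.0437), with a log2 difference of 4.38 ± 0.81 (SE) from each. Of all sequences, 5.09% were called higher in leaf against root and 3.24% against fruit. The form passed the filter on low values only through leaf, since outside leaf 1 library reached a value of 1, so it had to differ there. Against flower, where the leaf mean was 15.3 times as high and the log2 difference 3.46 ± 0.81 (SE), it was not called (adjusted p = 0.097, limma). Both leaf libraries above both of the other tissue was seen for 25.5% of all sequences against root, 32.4% against fruit and 25.0% against flower.

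The leaf mean of 19.8 would be worth between 7.8 reads in root 2 and 26.8 in flower 2 where the form was listed at 0, so it lay above every floor. Leaf was thus the tissue with the lowest mean of the guide and the highest of the form that overlaps its start. Over the 8 libraries Pearson's r between these forms on the log2 scale was -0.468, a description of 8 values that share their libraries.

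**Figure D3:**
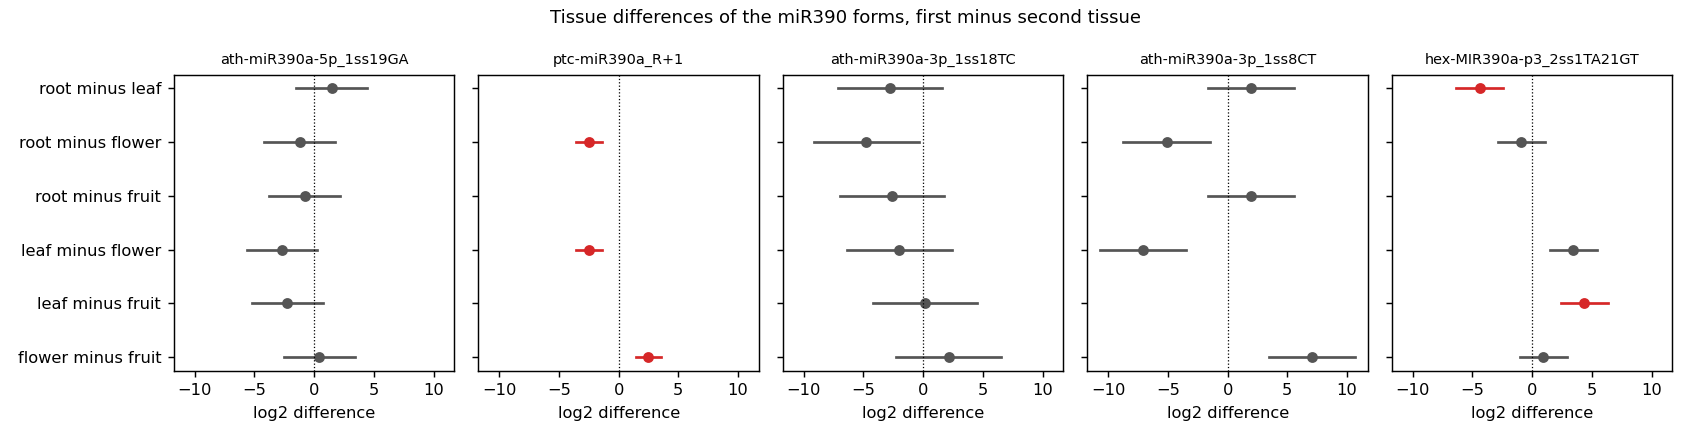
Log2 differences of the 5 forms between tissues, first minus second, on the log2(value + 1) scale; points are limma estimates, lines their 95% intervals, and red marks an adjusted p under 0.05. Pairs in which both tissues were listed at 0 are left out. The 5 red estimates belong to ptc-miR390a_R+1 and the overlapping hex form, while the guide form's intervals all include 0.

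Over the 6 pairs the 5 forms gave 30 combinations, of which 5 had 0 in both tissues and 5 were called by limma, with 10 at an unadjusted p under 0.05. Over all sequences, 3.7% of the combinations were called and 18.4% had an unadjusted p under 0.05. Between root and fruit 0 of the 5 forms were called, none of them at an unadjusted p under 0.05, and 2.78% of all sequences were called either way. All 5 calls were against a tissue listed at 0, and came from forms that passed the filter on low values only through the tissue where they were high, so their number is a description. The same holds for the 10 at an unadjusted p under 0.05. Of these, 3 each came from the overlapping form, ptc-miR390a_R+1 and ath-miR390a-3p_1ss8CT, which all passed the filter in that way. The last 1 came from ath-miR390a-3p_1ss18TC. The number of calls depended on single libraries, for these forms and over all sequences. Leaving out either root library raised it in both, and leaving out any other library lowered it in both. Equal listed totals and no filter called 0, with 9 and 10 at an unadjusted p under 0.05, and quantile normalization called 2. Over all sequences these settings called 27, 8 and 22, against 48 in the main fit.

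Other miRNAs of auxin signalling were set beside the family. miR160 and miR167 target auxin response factors other than those reached through TAS3, and miR393 targets the auxin receptors. Of 14 tested, limma called 1 in 84 combinations with the pairs, with 21 at an unadjusted p under 0.05. Over all sequences, 3.7% of combinations were called and 18.4% had an unadjusted p under 0.05. ath-miR167a-3p_L+1_2ss10TG11C- was lower in root, at 11.4 and 34.3, than in leaf, at 281 and 352 (adjusted p = 0.0441, limma). It is a 3p form by its name, since the list was taken by family number whatever the arm, and its targets were not analysed. The median log2 difference of the list was -2.38 for root minus leaf, 1.74 for leaf minus flower and 1.98 for leaf minus fruit, against 0, 0 and 0.03 over all sequences. The guide form of miR390 had the opposite sign there, at 1.46, -2.68 and -2.24. None of the guide's differences was called in any pair, and all their 95% intervals include 0, so these signs are a description. For root minus flower and root minus fruit the list, at -0.21 and -1.08, had the same sign as the guide, at -1.22 and -0.77, against 0 over all sequences. For flower minus fruit the list was at -0.78, the guide at 0.44 and all sequences at 0.39. vvi-miR167b, the most abundant of the list, was 33594 and 34830 in leaf, 1316 and 18585 in fruit, 1865 and 3233 in flower and 557 and 1495 in root. Its mean was thus highest in leaf, where the mean of the miR390 guide was lowest.

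Of the miRNAs that target the small RNA machinery itself, miR162 (DCL1), miR168 (AGO1) and miR403 (AGO2), 10 were tested. Limma called 3 of 60 combinations, with 5 at an unadjusted p under 0.05. Over all sequences these shares were 3.7% and 18.4%. All 3 calls were of lus-MIR162b-p3_2ss16GA17AG, at 13.4 and 8.89 in flower and listed at 0 elsewhere, which belongs to the list by name alone. It passed the filter on low values through flower only, so it had to differ there, and no other member of the list was called. ath-miR168a-5p, the most abundant, was 45382 and 2312 in root, 10122 and 10867 in fruit, 9026 and 7440 in leaf and 2980 and 2629 in flower. The same shares stand beside 12 tested miRNAs of the families that trigger secondary small RNAs in other plants. Limma called 0 of their 72 combinations, with 4 at an unadjusted p under 0.05. gma-miR828a, the most abundant, which starts secondary small RNAs from TAS4 in Arabidopsis, was 58.7 and 225 in leaf, 183.2 and 13.3 in flower, 126.6 and 5.08 in root and 27.2 and 16.1 in fruit.

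The miRNAs whose pattern over the 8 libraries was most like that of the guide form were ath-MIR319a-p5_1ss7CG, with a Pearson's r of 0.757, mtr-miR159b_L-1_1ss21AC, with 0.733, and gra-MIR482d-p5_1, with 0.712, among 130 sequences. Without root 2 these were 0.705, 0.7 and 0.64. The most alike, ath-MIR319a-p5_1ss7CG, was 950.3 and 479.5 in flower, 943 and 71.2 in root, 130.5 and 746 in fruit and 91.7 and 70.1 in leaf. Like the guide it was low in leaf and root 2, but unlike the guide it was low in fruit 1.

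For ath-miR390a-3p_1ss18TC the most alike were hvu-MIR171-p3_2ss9GT19GA, with an r of 0.894, ath-miR162a-5p_L-1, with 0.875, and PC-5p-39162_114, with 0.872. All 3 were listed at 0 in root 2, as the 3p form was. Without root 2 the r fell to 0.177, 0.0755 and 0.306, so the likeness rested on that library.

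**Figure D4:**
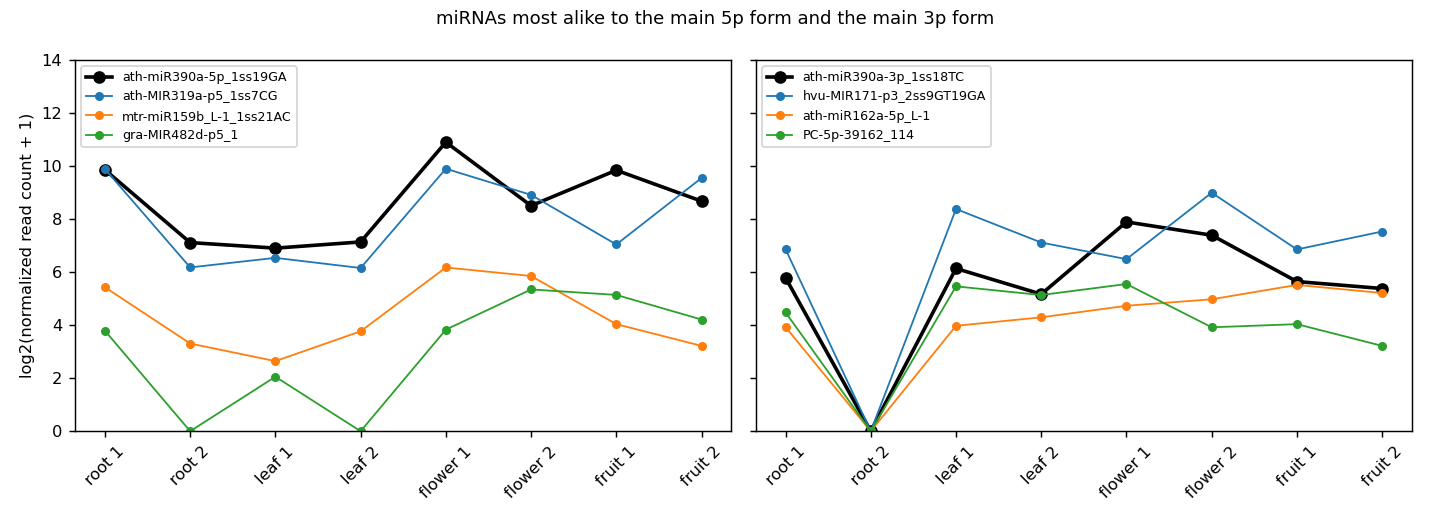
Log2(normalized read count + 1) of the main 5p form (left) and the main 3p form (right), in black, with the 3 miRNAs most alike to each, in the 8 libraries; lines join the libraries only to guide the eye. On the right all 4 sequences fall to 0 in root 2, and on the left the leaf libraries and root 2 are the lowest for the guide.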

How the data were processed

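Small RNA of 8 Paeonia lactiflora libraries, 2 from each of root, leaf, flower and fruit, was analysed from the table of normalized read counts that the authors deposited. These deposited values were treated as a signal. The headers name them as normalized. The formula, the aligner and any genome build or program version were not given in the sources used here. Per the labels' protocols, the program ACGT101-miR removed adapter dimers, low-complexity reads, common RNA families and repeats. Per the deposited legend, reads were mapped to miRBase hairpins of selected species, and a value covers the isoforms of 1 hairpin arm, so reads of close variants can be pooled under 1 name.

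Entries with an identical sequence were joined, leaving 270 sequences of 304 entries. For every library a step was found that divides most values evenly, with a tolerance of 0.01 step. It fitted 75.7% to 83.2% of the nonzero values, and 94.2% to 98.6% when values split in 2 were also allowed. This step was taken as the value of 1 read. It gave depths from 73898 reads in root 2 to 724509 in flower 2. All 23 values of the miR390 forms above 0 were whole multiples, so they are also given as reads. The table as a whole was not, so no count model was used.

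A sequence was tested when 2 or more libraries reached a value of 1, which left 216. Their log2(value + 1) was fitted by tissue over all 8 libraries with limma 3.58.1 (R 4.3.3) and its trended moderation, on 4 residual and 2.43 prior degrees of freedom. For each of 6 pairs of tissues and for an F test, p-values were adjusted by Benjamini-Hochberg across all 216, and 0.05 was the threshold. The design foresaw a count model only for counts. The script was tested on simulated data in which only abundant sequences were changed, so that test does not cover forms near 0. Duplex energies came from RNAduplex of ViennaRNA 2.7.2, and shares of reads have exact Clopper-Pearson 95% intervals, with the limit of 3 reads beside a share of 0. These, like the floors of 3 reads, cover counting error only, since reads without molecular identifiers are not independent molecules.

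Every form whose family number is 390 is described. Of the auxin, small RNA pathway and secondary small RNA lists, the called members and the most abundant member are named. The miRNAs most alike were the 3 with the highest Pearson r among 130 sequences of other families with a mean of at least 10. The members and lists were chosen with earlier results of these data known. Other pseudocounts, filters, scalings, variance models, a replicate block and leaving out each library were tried.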

Additional observations from a re-analysis of the deposited data

How the results depend on the processing

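The cause of none of these shifts was tested. ptc-miR390a_R+1 did not pass the filter at a minimum value of 10 or without either flower library, so it was not tested there. Its calls in the pairs and the F test had to be lost in those fits. The 5 calls of the miR390 forms over the pairs became 2 with a pseudocount of 10, 0 with no filter, 1 with a minimum value of 10, 0 with equal listed totals, 2 with quantile normalization, 2 without the mean-variance trend, 3 with the pair of tissues alone and 0 with the replicate block. They ranged from 0 to 11 with a library left out, where the remaining library was assumed to vary like the other tissues. The 1 form called in the F test became 2 with a pseudocount of 0.5, 3 with library weights and 0 with a pseudocount of 10, no filter, a minimum value of 10, equal listed totals, quantile normalization, no trend or the replicate block, and ranged from 0 to 4 with a library left out. Over all sequences, the 48 calls in the pairs became 23 with a pseudocount of 10, 8 with no filter, 27 with equal listed totals, 22 with quantile normalization and 2 with the replicate block, and ranged from 0 to 166 with a library left out. The 10 in the F test became 27 with a pseudocount of 0.5, 35 with library weights, 4 with no filter or a minimum value of 10, 3 with equal listed totals or quantile normalization and 0 with a pseudocount of 10 or the replicate block, and ranged from 0 to 53 with a library left out. Calls over all sequences and pairs were 33 with a minimum value of 10, 42 without the trend and 66 with the pair of tissues alone. The replicate numbers share only a number: deviations of same-numbered libraries correlated between -0.197 and 0.238 across the pairs of tissues. Equal listed totals moved the median log2 difference over all sequences by -0.44, flower minus fruit, and by 0.42, root minus flower, and quantile normalization moved the former by -0.48.

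The log2 differences of single forms changed sign in 3 of 268 cases under other settings and in 7 of 190 with a library left out, each of which was not called after the change. For the guide form these were flower minus fruit, at -0.48 with equal listed totals, and between -0.76 without flower 1 and 1.64 without flower 2, with -0.14 without fruit 2. Root minus flower lay between -2.59 without root 1 and 0.16 without root 2, and root minus fruit between -2.14 and 0.6. For ath-miR390a-3p_1ss18TC they were leaf minus fruit, at -0.34 with equal listed totals, -0.59 with quantile normalization, and between -0.34 without leaf 1 and 0.62 without leaf 2. Root minus leaf lay between -5.65 without root 1 and 0.13 without root 2, and root minus fruit between -5.51 and 0.27. Depth limits ptc-miR390a_R+1 most, at 6 and 11 reads, and the zeros of root 2, the shallowest library.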
